A study of Homo sapiens with 12 samples.

Results

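The resting transcriptome of AC16 cells was described from the 3 control libraries of a doxorubicin time course, out of 12 libraries in all. The control libraries were chosen by their label alone, as the cultures that had received culture medium and no drug. The other 9 libraries came from AC16 cells given 0.1 µM doxorubicin, an anthracycline that poisons type II topoisomerases. They fall into 3 times with 3 libraries at each, which one label gives as 48 h, 96 h and 112 h of drug and another as 2, 4 and 6 days. The first pair of times match, but 112 h is shorter than 6 days, and the labels do not settle which holds. All 12 libraries carried the genotype label WT, came from cells kept in medium (DMEM/F12) that held 12% serum, and were harvested on day 6. Nothing in the labels ties the 3 libraries of a group to cultures of their own, so their spread, and any p-value built on it, may be technical.

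AC16 is a human line that arose from a fusion of adult ventricular tissue cells with SV40-transformed fibroblasts devoid of mitochondrial DNA. It is therefore 1 hybrid clone that divides, which adult cardiomyocytes do rarely, and it carries a viral oncogene. A working cardiomyocyte is known for its sarcomere, built of cardiac myosin, actin, troponin and titin, and for ion channels and calcium handling proteins that couple excitation to contraction. A small set of transcription factors, among them GATA4, NKX2-5 and TBX5, switches those genes on in the developing heart. Fibroblasts are known instead for fibrillar collagens, fibronectin and vimentin. The labels call the cells cardiomyocytes, and that label was checked against the genes that define the cell type.

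Reads had been counted per gene by the authors. A level is given here in CPM, the counts of a gene scaled to a library of 1000000 counts, and the values of the 3 control libraries stand in the order of replicates 1, 2 and 3. Orders of level between genes are given in TPM, which divides by the length of the gene's exons and so does not favour long genes. A rank, sum or median in CPM is a share of a library's counts, in which long genes weigh more. A gene was called detected where each of the 3 control libraries reached 1 CPM. Levels and detection are of RNA, and protein was not measured here. Errors are SDs over the 3 libraries unless an interval is named. The control libraries held 17188805, 15016341 and 14835743 counts, 47040889 together, and the 12 libraries ranged from 14835743 to 21226441. For a gene with 0 counts in all 3, 3 counts of the pooled total allow a level of up to 0.0638 CPM, and such limits and the Poisson intervals below cover counting error only. Counts from the mitochondrial genome made up 5.51% to 8.34% of the doxorubicin libraries and 6.01%, 8.26% and 6.75% of the control libraries.

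Untreated AC16 cells had 13441 detected genes, of which 11784 were protein coding, or 59.3% of the 19868 protein-coding genes counted. A further 842 were long intergenic or antisense RNAs and 428 were pseudogenes. At the other end, 3853 protein-coding genes had 0 counts in all 3 control libraries. Of the 433 genes in the 22 lists of identity, receptor and drug genes described below, 259 were detected, 114 had counts but did not reach the 1 CPM limit in every library, and 60 had none.

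The transcripts that filled the libraries were those of mitochondria, extracellular matrix, the cytoskeleton and translation. Mitochondrially encoded genes took 10 of the 20 highest places by CPM and 15 of the 20 highest by TPM, led by the large ribosomal RNA MT-RNR2 at 13418 ± 1682 CPM. The highest nuclear gene by CPM was FN1, which encodes fibronectin, the matrix glycoprotein that cells grip through integrins (ENSG00000115414.21, chr2:215360440-215436172, GRCh38). FN1 had 10368, 8918 and 10152 CPM, a mean of 9812 ± 782. The 20 highest genes together took 9.79%, 12.1% and 10.5% of the counts.

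Ranked per length, the nuclear order changed. The actin-sequestering peptide gene TMSB10 came first at 5654 TPM, then the actin gene ACTB at 5339 TPM, the elongation factor gene EEF1A1 at 4390 TPM, the ferritin light chain gene FTL at 4033 TPM and CCN1 at 4024 TPM. CCN1 encodes a secreted matricellular protein that is induced by serum and by actin tension. FN1 stood at 2225 ± 296 TPM. CCN2, the connective tissue growth factor gene and a relative of CCN1, had 1973 TPM. Neighbours in such an order depend on the length used. With the longest transcript in place of all exons ACTB came first at 6462 TPM, then EEF1A1 at 4539 TPM, TMSB10 at 4366 TPM and GAPDH, a glycolytic enzyme gene, at 3791 TPM, while CCN1 had 3329, FN1 3242 and FTL 3114 TPM. With that length 19 of the 20 highest genes by TPM were shared, and 15 of the 20 highest nuclear genes.

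Among the contractile cytoskeleton genes of non-muscle cells, MYH9, the non-muscle myosin heavy chain, had 2875 ± 58.9 CPM. The actin crosslinker gene FLNA had 2444 ± 29.7 CPM and the other cytoplasmic actin gene ACTG1 had 2199 ± 163 CPM. The chaperone gene HSP90AA1 averaged 2664 CPM and the secreted glycoprotein gene FSTL1 2632 ± 119 CPM. The nuclear noncoding RNA MALAT1 averaged 5004 ± 508 CPM.

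The identity lists split the profile sharply. Fibroblast genes were nearly complete: 26 of 27 were detected, with a median of 217 CPM. All 10 cadherins and mesenchymal regulators and 15 of 18 smooth muscle genes were detected, with medians of 77.5 and 19.8 CPM. By contrast 8 of 18 cardiac transcription factors, 5 of 30 sarcomere genes, 7 of 22 cardiac excitation and calcium genes and 3 of 15 cardiac hormone and metabolic genes were detected. The medians of those 4 cardiac lists lay between 0.156 and 0.372 CPM. Among lists for cell types not named in the labels, 12 of 23 epithelial, 5 of 14 endothelial, 4 of 12 leukocyte, 5 of 12 neural and 1 of 10 skeletal myogenic genes were detected. The background for these counts, and for those of the receptor and drug lists below, is the 59.3% of all protein-coding genes that were detected. In bulk RNA, a low level in all cells and a high level in few cells cannot be told apart, and neither can fewer cells of a type and less RNA per cell.

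**Figure D1:**
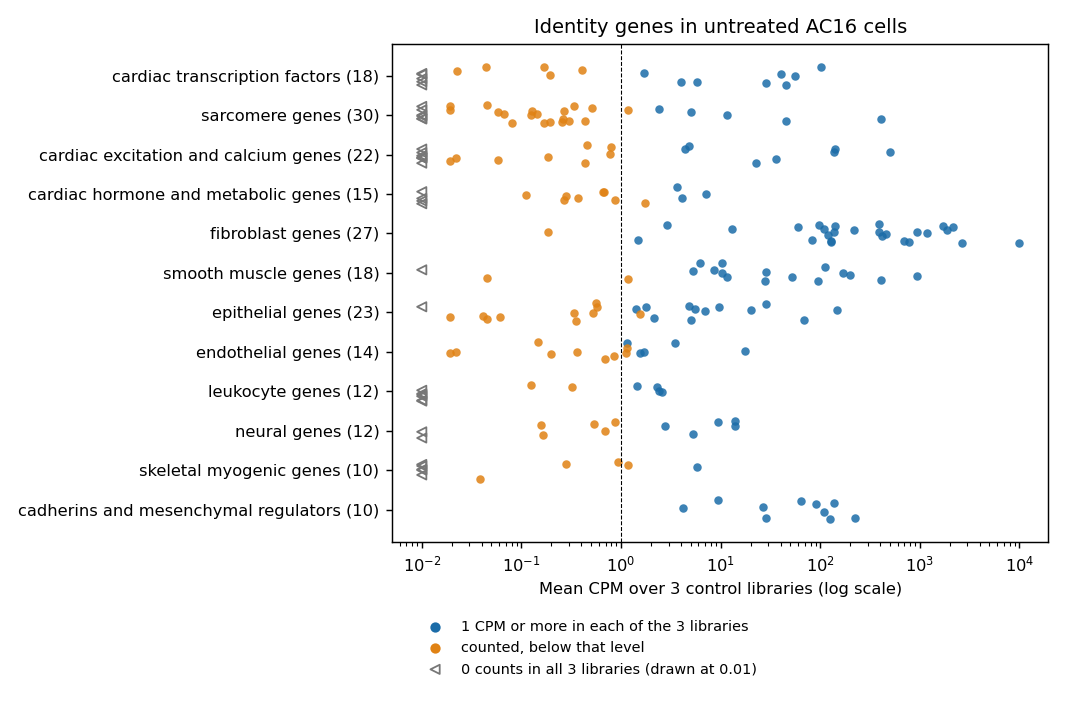
Mean level of every member of the identity lists over the 3 control libraries, in CPM on a log axis, coloured by detection, with members at 0 counts as open triangles at the left and 1 CPM as a dashed line. Of the fibroblast list 26 of 27 members are detected, and of the sarcomere list 5 of 30.

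Of the cardiac transcription factors 8 of 18 were detected, GATA4 and GATA6 among them, while NKX2-5 and TBX5 were at or near 0. GATA6, a zinc finger factor of heart and gut development, had 55.3, 54.3 and 58.6 CPM (ENSG00000141448.11, chr18:22169443-22202528). GATA4, its partner in cardiac gene activation, had 5.53, 6.33 and 5.59 CPM. Per length the order was the same, at 55.7 ± 4.45 TPM for GATA6 and 5.11 ± 0.116 TPM for GATA4. TBX18, a marker of the epicardium and of sinus node precursors, had 43.9, 34.0 and 43.4 CPM. MEF2A and MEF2D, which activate muscle genes but are expressed widely, averaged 102 ± 10.9 and 45.0 CPM. MYOCD, the myocardin coactivator of smooth and cardiac muscle genes, had 29.4, 24.9 and 30.9 CPM.

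NKX2-5, the homeobox factor that marks cardiac progenitors and their descendants, had 0, 0 and 1 count (ENSG00000183072.10, chr5:173232109-173235357). Pooled, that is 0.0213 CPM with a 95% Poisson interval of 0.000538 to 0.118 CPM. TBX5, its T-box partner in the left ventricle and atria, had 0, 2 and 0 counts, and MEF2C had 3, 0 and 5 counts. GATA5, HAND1, ISL1, IRX4 and PROX1 had 0 counts in all 3 control libraries. HAND2 had 5, 4 and 10 counts. TBX20, a T-box factor of the heart, was detected close to the limit, at 1.98, 1.13 and 2.02 CPM.

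The core genes of the sarcomere were at or near 0. Both cardiac myosin heavy chain genes, MYH6 (chr14:23381990-23408277) and MYH7 (chr14:23412738-23435718), had 0 counts in all 3 control libraries. So did MYL2, the ventricular regulatory light chain, the Z-disc and stress sensor genes CSRP3 and XIRP2, and SMPX. TNNT2, cardiac troponin T, had 2, 6 and 4 counts, a pooled 0.255 CPM with a 95% Poisson interval of 0.132 to 0.446. TNNI3, cardiac troponin I, had 2, 3 and 4 counts and MYL7, the atrial light chain, 1, 0 and 0. The libraries thus went against their cell type label in these defining genes, and the cells are called AC16 cells throughout.

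The list summed to 453, 485 and 484 CPM in the 3 control libraries, and most of that came from TPM1 alone. TPM1 encodes an alpha-tropomyosin that non-muscle cells also use on actin stress fibres, and it had 379.8, 420.3 and 417 CPM. MYPN, the Z-disc protein myopalladin, averaged 44.9 ± 2.46 CPM. TTN, the giant elastic filament titin, was detected at 14.1, 7.66 and 12.8 CPM, with control replicate 2 the lowest. Spread over its very long exons this was 0.384 ± 0.131 TPM, which lies below the 0.885 ± 0.147 TPM of ACTA1, a gene not called detected. MYOM1, which encodes a protein of the M-band, was detected at 2.40 CPM.

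Actins gave the clearest contrast within 1 family. ACTB and ACTG1, the cytoplasmic actins, had 5339 and 2869 TPM. The smooth muscle actins ACTA2 and ACTG2 had 13.4 ± 1.83 and 8.79 ± 1.28 TPM. The striated muscle actins ACTA1 and ACTC1 had 0.885 ± 0.147 and 0.218 ± 0.0133 TPM, from 6, 6 and 4 counts and from 4, 4 and 4 counts. Coding sequences of the 6 actins are nearly identical, so how their reads were divided among them is uncertain. Members of the family share a control element, the CArG box, the binding motif of serum response factor, whose coactivators include MYOCD and the MRTF proteins. Their start regions are shown because genes with a matching box had levels that far apart. Each window below runs from 250 bases before to 50 bases after the RefSeq gene start (GRCh38.p14), 5′ to 3′ on the gene's strand, with CArG boxes in capitals. The windows lie at chr17:81512750-81513049 (minus) for ACTG1, chr2:73892758-73893057 (plus) for ACTG2, chr1:229434045-229434344 (minus) for ACTA1 and chr15:34795500-34795799 (minus) for ACTC1.
ACTG1: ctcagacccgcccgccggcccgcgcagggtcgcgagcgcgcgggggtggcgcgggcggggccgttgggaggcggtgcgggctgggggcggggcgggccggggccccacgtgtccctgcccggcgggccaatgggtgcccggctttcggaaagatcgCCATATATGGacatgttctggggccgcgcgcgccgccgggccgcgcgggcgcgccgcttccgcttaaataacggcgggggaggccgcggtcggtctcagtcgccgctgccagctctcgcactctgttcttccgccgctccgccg
ACTG2: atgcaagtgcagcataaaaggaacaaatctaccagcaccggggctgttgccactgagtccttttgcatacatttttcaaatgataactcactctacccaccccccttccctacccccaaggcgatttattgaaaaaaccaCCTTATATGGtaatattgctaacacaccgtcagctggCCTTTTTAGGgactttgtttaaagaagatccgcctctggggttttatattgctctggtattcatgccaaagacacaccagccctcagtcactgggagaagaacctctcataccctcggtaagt
ACTA1: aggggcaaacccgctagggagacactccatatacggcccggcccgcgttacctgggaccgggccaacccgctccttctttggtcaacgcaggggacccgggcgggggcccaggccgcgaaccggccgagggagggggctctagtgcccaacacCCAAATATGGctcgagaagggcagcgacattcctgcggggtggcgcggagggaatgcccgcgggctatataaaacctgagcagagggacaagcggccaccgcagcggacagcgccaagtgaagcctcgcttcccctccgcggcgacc
ACTC1: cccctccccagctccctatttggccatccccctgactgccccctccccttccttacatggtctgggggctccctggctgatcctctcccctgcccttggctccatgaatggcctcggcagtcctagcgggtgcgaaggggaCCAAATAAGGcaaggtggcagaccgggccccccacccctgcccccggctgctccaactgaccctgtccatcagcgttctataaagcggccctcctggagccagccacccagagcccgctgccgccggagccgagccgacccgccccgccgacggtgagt

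The box begins 94 bases before the start in ACTG1, 110 and 73 bases before it in ACTG2, 97 in ACTA1 and 109 in ACTC1. The search was for the strict box on both strands with no mismatch allowed, so boxes that depart from it by 1 base were not counted. Of the 3 windows listed for ACTC1, 1 held the strict box. Neither window of ACTA2 did, which says nothing of boxes with a mismatch or of the factor. For the strict box, 454 of 35116 windows of the same length (1.29%) hold it. A match describes the letters only: the window of ACTG1, at 2869 TPM, and that of ACTC1, at 0.218 TPM, both have one.

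Of the excitation and calcium genes 7 of 22 were detected and 7 had 0 counts in all 3 control libraries. ATP2A2, the SERCA2 pump that refills calcium stores, had 538, 465 and 506 CPM. The gap junction genes GJA1 and GJC1, connexins 43 and 45, had 126, 125 and 158 CPM and 152, 128 and 143 CPM. Those 3 genes were also the highest of the list per length, at 144 ± 18.2, 157 ± 25.3 and 63.9 TPM, and the first pair did not differ beyond their SDs. CACNA1C, the pore of the L-type calcium channel, was even between libraries at 22.5 ± 0.464 CPM. The sodium-calcium exchanger gene SLC8A1 averaged 35.8 ± 3.55 CPM and the junction protein gene JPH2 4.42 ± 0.638 CPM.

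RYR2, the calcium release channel of the cardiac sarcoplasmic reticulum, had 1, 0 and 0 counts. PLN, phospholamban, the brake on SERCA2, had 5, 6 and 9 counts. CASQ2, TRDN, SLN, KCNQ1, KCNH2 and KCNJ3 had 0 counts in all 3 control libraries. These are genes of the calcium store and of potassium channels.

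Cardiac hormone genes were at the edge of detection. NPPA, the atrial natriuretic peptide, had 12, 4 and 15 counts and NPPB, the ventricular one, 16, 11 and 14 counts. Pooled, NPPA stood at 0.659 CPM (95% Poisson interval 0.448 to 0.935) and NPPB at 0.872 CPM (0.625 to 1.18). The detected members were ANKRD1, a stretch-responsive muscle repeat protein gene, at 5.59, 8.52 and 7.21 CPM, the fatty acid carrier gene FABP3 at 4.13 ± 0.393 CPM and CPT1B, the muscle carnitine transferase gene, at 3.69 ± 0.495 CPM. MB, myoglobin, the glycolytic PGAM2, the dehydrogenase kinase PDK4 and COX6A2 had 0 counts in all 3.

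Fibroblast genes filled between 23759 and 25208 CPM of each control library. Fibrillar collagen I was led by COL1A1 at 2376, 2811 and 2709.5 CPM and COL1A2 at 1912, 1842 and 1819 CPM. COL3A1, the type III collagen chain, had 988, 889 and 962 CPM. SPARC, a collagen-binding matrix glycoprotein, was among the most even genes at 1715, 1722 and 1729.9 CPM. VIM, the mesenchymal intermediate filament gene, had 1994, 2372 and 2158 CPM. Per length the first 4 of the list were FN1 at 2225 ± 296 TPM, VIM at 1645 ± 53.5, SPARC at 1396 ± 76.8 and COL1A1 at 1047 ± 51.6 TPM.

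Surface and proteoglycan markers of fibroblasts were also detected. LUM and DCN, which encode small leucine-rich proteoglycans that space collagen fibrils, averaged 217 ± 8.08 and 129 ± 2.48 CPM. THY1 averaged 138 ± 14.9 CPM, FAP 127 ± 12.1 CPM and POSTN, periostin, 141 ± 10.5 CPM. TCF21, a transcription factor of cardiac fibroblast precursors, was close to the limit at 1.48 ± 0.266 CPM. PDPN, podoplanin, a membrane glycoprotein of some stromal cells, was the 1 member not called detected, at 0.291, 0.266 and 0 CPM.

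Of the smooth muscle genes 15 of 18 were detected, and 1 had 0 counts. TPM2, CALD1 and TAGLN, genes for actin-binding proteins of contractile filaments, had 484 ± 49.4, 377 ± 37.4 and 111 ± 5.98 TPM. MYLK, the myosin light chain kinase, averaged 199 ± 11.9 CPM, SMTN 95.5 ± 13.2 CPM and CNN1, calponin, 28.1 ± 3.01 CPM. ACTA2, the actin most often used to mark smooth muscle and myofibroblasts, had 8.84, 12.6 and 9.44 CPM. MYH11, the smooth muscle myosin heavy chain, had 0 counts in all 3 control libraries and the integrin gene ITGA8 0, 1 and 1. Desmin, DES, had 8, 23 and 23 counts, so control replicate 1 stood below the other pair.

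Epithelial genes formed a partial set, with 12 of 23 detected against 59.3% of all protein-coding genes. Simple keratin genes KRT18 and KRT8, which overlap in the annotation, had 65.4, 79.0 and 60.0 CPM and 25.1, 36.0 and 24.3 CPM. The junction genes TJP1 and OCLN averaged 146 ± 18.9 and 20.2 ± 1.83 CPM. EPCAM had 5, 11 and 10 counts, the splicing factor ESRP1 2, 1 and 0, and the basal keratin KRT5 none. The cadherins were unequal: CDH2, N-cadherin, had 179 ± 17.3 TPM and CDH1, E-cadherin, 3.07 ± 0.361 TPM. In CPM, CDH2 had 224, 215 and 239.6 and CDH1 4.01, 5.66 and 4.92. The repressors of epithelial genes TWIST1, ZEB1 and SNAI1 had 173 ± 14.1, 49.5 ± 8.17 and 21.8 ± 3.67 TPM.

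**Figure D2:**
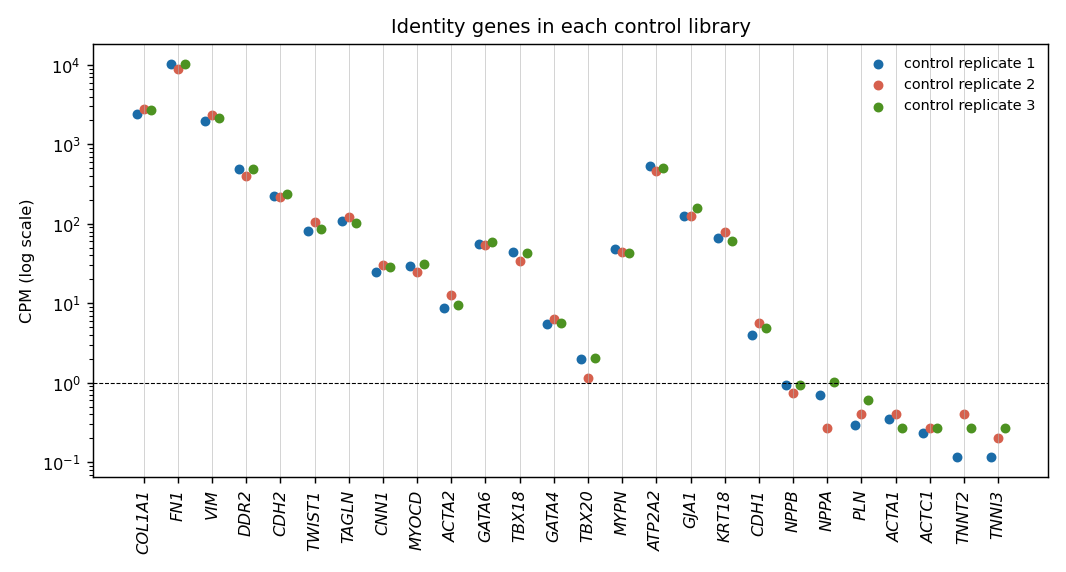
Level of 26 identity genes (x axis) in each of the 3 control libraries (coloured points), in CPM on a log axis, with the 1 CPM limit as a dashed line. COL1A1 lies between 2376 and 2811 CPM, GATA6 near 55 CPM, and the troponins TNNT2 and TNNI3 lie below the limit in every library.

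Markers of other lineages were mostly near the limit. The endothelial list was led by TEK, the angiopoietin receptor, at 14.4 ± 2.00 TPM. CDH5, the VE-cadherin that defines endothelial junctions, had 0, 1 and 0 counts, and PECAM1 and VWF averaged 1.16 and 1.15 CPM. Of the leukocyte genes, CD3E, ITGAM, AIF1, LYZ, TYROBP and HLA-DRA had 0 counts and the highest per length was CD68, a lysosomal gene of many cells, at 4.57 ± 1.76 TPM. The neural list was led by SNAP25, a vesicle fusion gene, at 16.4 ± 2.52 TPM, while SOX2 and NEFL had 0 counts. In the skeletal list MYOD1, MYF5, MYF6, PAX3 and PAX7 had 0 counts and MYH3, the embryonic myosin, had 5.70, 6.39 and 5.39 CPM.

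Untreated cells expressed the genes of dividing cells. In the proliferation list 24 of 25 genes were detected, with a median of 155 CPM. MKI67, which marks cycling nuclei, had 1213, 1117 and 1210.1 CPM, and CDK1, the mitotic kinase, 253, 230.4 and 240.2 CPM. Per length the replication clamp PCNA was highest at 927 ± 26.8 TPM. The cyclin-dependent kinase inhibitor genes CDKN1A and CDKN2A had 201 ± 31.4 and 122 ± 16.8 CPM. TERT, the catalytic subunit of telomerase, was detected at 3.84, 5.33 and 4.79 CPM. CCND2 was the 1 gene of the list not detected, with 0, 1 and 0 counts.

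The highest of the receptor tyrosine kinases per length was AXL, the GAS6 receptor. It had 658, 662 and 600.2 CPM and 486 ± 33.0 TPM. It was followed per length by DDR2, the fibrillar collagen receptor, at 168 ± 26.5 TPM and MET, the hepatocyte growth factor receptor, at 122 ± 19.6 TPM. EPHA2 at 95.7 ± 8.56 TPM and EGFR at 85.3 ± 15.4 TPM came next and did not differ beyond their SDs. PDGFRA, PDGFRB, IGF1R and ERBB3 lay together between 29.2 and 33.5 TPM. In all 24 of 34 members were detected, with a median of 17.8 CPM.

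The ERBB family, which carries the neuregulin signal in heart muscle, was uneven. EGFR had 301, 233 and 280.1 CPM, ERBB3 65.9, 68.2 and 68.3 CPM and ERBB2 38.5, 42.2 and 41.5 CPM. ERBB4, the neuregulin receptor of cardiomyocytes, had 16, 12 and 5 counts, a pooled 0.702 CPM (95% Poisson interval 0.483 to 0.985). Per length the family ran from 85.3 ± 15.4 TPM for EGFR through 29.2 ± 1.28 for ERBB3 and 15.4 ± 0.488 for ERBB2 to 0.207 ± 0.0966 TPM for ERBB4. The insulin receptor gene INSR had 11, 13 and 8 counts, or 0.253 ± 0.0498 TPM, and its relative IGF1R 33.0 ± 4.14 TPM. FGFR2 and NTRK2 had 0 counts in all 3.

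Of the G protein-coupled receptors 20 of 37 were detected, with a median of 1.60 CPM. Per length the first 5 were F2R, the thrombin receptor, at 119 ± 15.4 TPM, LPAR1 for lysophosphatidic acid at 93.4 ± 8.63, ADORA2B for adenosine at 73.8 ± 7.32, OXTR for oxytocin at 53.5 ± 5.79 and AGTR1 for angiotensin II at 32.6 ± 4.41 TPM. AGTR1 had 28.4, 26.4 and 32.0 CPM, while AGTR2 had 0 counts. ADRB1, the beta-adrenergic receptor that drives heart rate and force, was close to the limit at 1.92, 1.73 and 1.15 CPM, and ADRB3 had 0 counts. The muscarinic receptor of the heart, CHRM2, had 10, 4 and 8 counts. The endothelin receptor EDNRA was detected at 2.12 ± 0.573 CPM and EDNRB had 0 counts.

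Receptors for TGF-beta and the IL-6 cytokine family were well represented. TGFBR1 and TGFBR2, the signalling pair for TGF-beta, averaged 252 ± 34.9 and 77.6 ± 7.23 CPM, and BMPR2 174 ± 30.9 CPM. ACVRL1, the endothelial type I receptor, was not called detected, at 0.608 ± 0.235 CPM. OSMR, the oncostatin M receptor, had 600.3, 505 and 584 CPM, and IL6ST, the shared gp130 chain, had 619.6, 394 and 592 CPM. Control replicate 2 was the lowest for both and by more than the gap between the other pair. IL6R, the ligand-binding chain for IL-6, was at 10.3 ± 0.667 CPM and CXCR4 at 0 counts.

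Steroid and peptide hormone receptors showed pairs that differed. The glucocorticoid receptor NR3C1 had 229.5, 168 and 223 CPM, while the mineralocorticoid receptor NR3C2 had 3, 3 and 4 counts. PPARD was the highest nuclear receptor of the list per length at 119.8 ± 7.13 TPM, and PPARA, which serves fatty acid oxidation in the heart, had 12.3 ± 2.66 TPM. Of the natriuretic peptide receptors, NPR3 (clearance) and NPR2 (for C-type peptide) averaged 44.2 ± 8.22 and 19.8 ± 0.537 CPM and NPR1, the receptor for the NPPA and NPPB products, had 8, 12 and 3 counts. Both subunits of the main nitric oxide-sensitive cyclase, GUCY1A1 and GUCY1B1, were near 0, at 2, 0 and 0 and at 0, 0 and 1 counts.

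**Figure D3:**
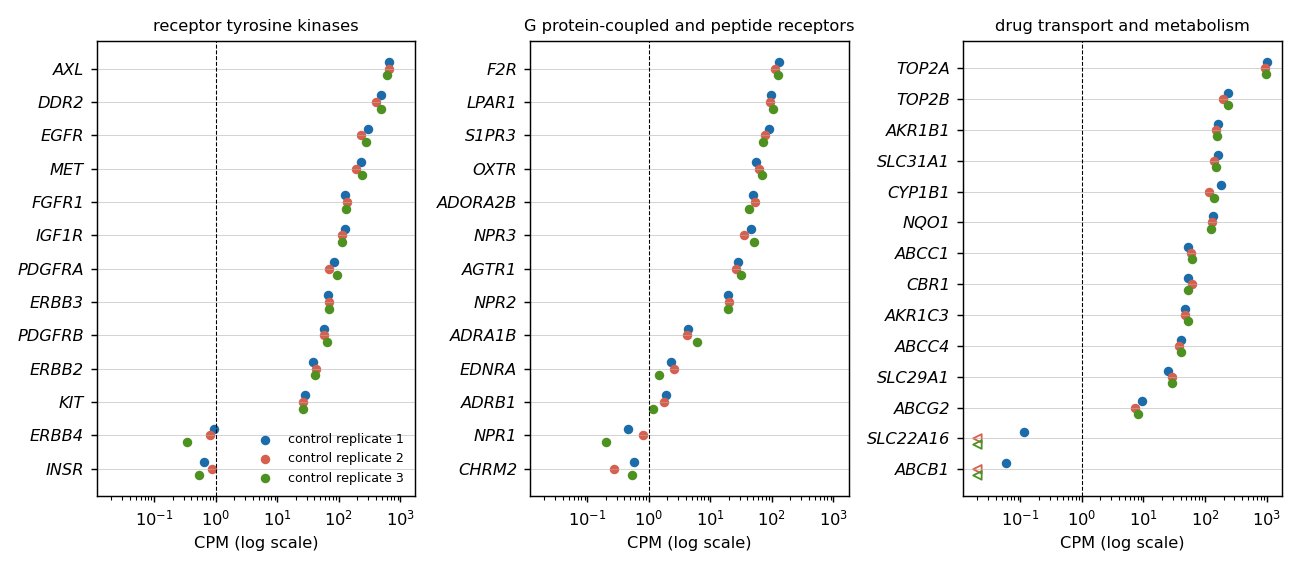
Level of selected receptor, transporter and drug-related genes in each of the 3 control libraries (coloured points), in CPM on a log axis, with the 1 CPM limit as a dashed line and libraries at 0 counts as open triangles at the left. AXL lies between 600.2 and 662 CPM and TOP2A between 939 and 1022 CPM, while ABCB1 and SLC22A16 have counts in control replicate 1 only.

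Genes that bear on doxorubicin itself were mostly detected, 23 of 27, with a median of 41.6 CPM. TOP2A, the topoisomerase of dividing cells and the main target of the drug, had 1022, 939 and 979.9 CPM (ENSG00000131747.15, chr17:40388516-40417950). TOP2B, the form of non-dividing cells that is linked to cardiac toxicity, had 240.3, 199.6 and 236 CPM. Per length TOP2A stood at 597 ± 58.2 TPM and TOP2B at 146 ± 22.1 TPM. The difference between their levels was larger than the spread of either gene over the 3 libraries.

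Among efflux genes, several MRP types were detected and P-glycoprotein was not. ABCB1, P-glycoprotein, the classical doxorubicin pump, had 1, 0 and 0 counts, a pooled 0.0213 CPM with a 95% Poisson interval of 0.000538 to 0.118 (ENSG00000085563.15, chr7:87503633-87713323). ABCC1, MRP1, had 53.5, 59.5 and 61.3 CPM, ABCC4 40.1, 37.2 and 40.4 CPM and ABCG2, the breast cancer resistance protein, 9.48, 7.39 and 8.09 CPM. Of the list 11 of 17 were detected, and ABCB5 had 0 counts.

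Uptake carriers were few. SLC22A16, the carnitine carrier described as a doxorubicin importer, had 2, 0 and 0 counts. The organic cation and anion carriers SLC22A2, SLC22A3, SLCO1B1, SLCO1B3 and SLCO2B1 and the nucleoside carrier SLC28A1 had 0 counts in all 3. Of 22 members 8 were detected, led per length by the copper carrier SLC31A1 at 116 ± 14.8 TPM, the nucleoside carrier SLC29A1 at 24.7 ± 1.48 and SLC22A4 at 16.5 ± 3.21 TPM.

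Genes for enzymes that reduce or redox-cycle the drug were detected. The carbonyl reductases CBR1 and CBR3 had 88.4 ± 2.61 and 33.5 ± 0.423 TPM. The aldo-keto reductases AKR1B1, AKR1A1 and AKR1C3 had 169 ± 13.2, 62.8 ± 2.61 and 42.9 ± 4.10 TPM, though AKR1C3 has close paralogs that could share its reads. NQO1, a quinone reductase, had 135, 132 and 126 CPM and CYP1B1 184, 118 and 138 CPM. Among antioxidant enzymes SOD1 had 235 ± 12.0 TPM and SOD2, the mitochondrial form, 34.1 ± 5.48 TPM. CYP3A4, the liver oxidase, had 0 counts in all 3.

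The 3 control libraries were not equally alike: replicate 2 stood apart. The common biological coefficient of variation (BCV), the spread between libraries beyond counting error over all genes, was 0.0841, 0.0822 and 0.0727 in the 3 doxorubicin groups in order of time and 0.111 in the controls. Without control replicate 2 it was 0.0512, and without replicate 1 or 3 it was 0.124 or 0.138. Between replicates 1 and 3 the median absolute log2 ratio was 0.0844, against 0.195 between 1 and 2 and 0.176 between 2 and 3. Pairs within the doxorubicin groups ranged from 0.0876 to 0.131. Of 9332 genes that averaged 10 CPM or more, replicate 2 was the library farthest from the others in 5687 (60.9%), against 22.1% for replicate 1 and 16.9% for replicate 3.

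The departure of replicate 2 moved with base composition and length. Its median log2 ratio to the other 2 libraries was −0.21, −0.07, 0.06 and 0.22 from the lowest to the highest quartile of GC content, with 2331 genes in each. By exon length it was 0.17, 0.04, −0.04 and −0.15 from the shortest to the longest quartile. Low GC and long genes were thus read lower in replicate 2, and the part of either property in the spread was not tested. For most genes the spread was still modest, with a median CV of 8.79% and a 90th percentile of 17.4% over the 9332 genes. The 186 list genes of at least 10 CPM had a median CV of 8.70%, with a range of 0.438% to 40.2%.

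**Figure D4:**
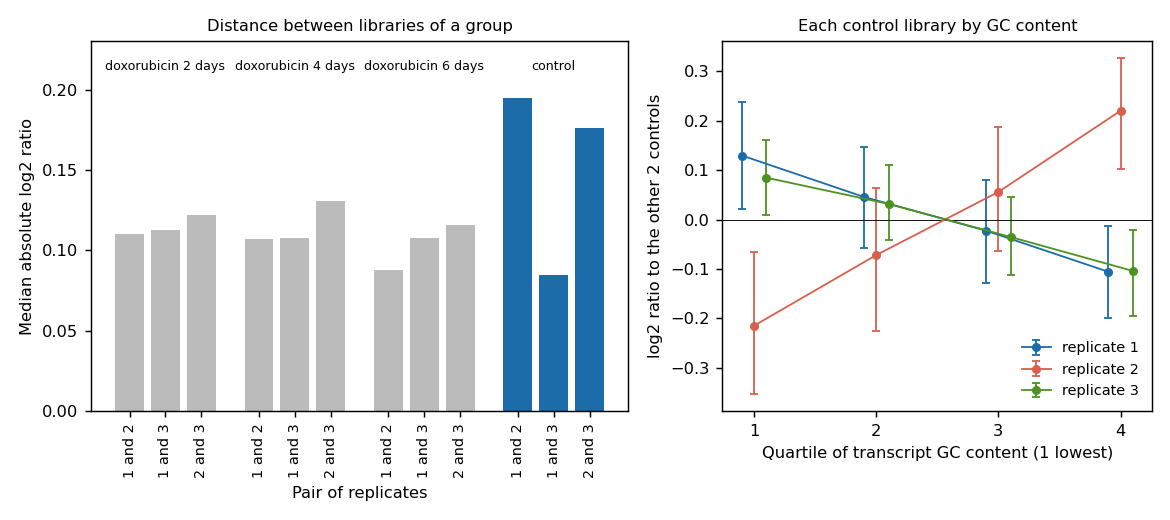
Left, median absolute log2 ratio between the libraries of each pair of replicates within a group. Right, log2 ratio of each control library to the other pair by quartile of GC content, as the median with bars over the interquartile range of genes. The control pairs with replicate 2 stand at 0.195 and 0.176 and the pair without it at 0.0844, and replicate 2 climbs from −0.21 to 0.22 over the quartiles.

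Only a few genes differed widely between control libraries: 407 of the 9332 had a highest value over 1.5 times the lowest. A ratio over 2 was seen in 12, with XIST and Y-linked genes not counted, and replicate 2 was the farthest library in 10 of them. The largest BCV of a single gene belonged to RPS9, a ribosomal protein gene, at 28.0, 7.59 and 63.0 CPM. RPS18 was also among the 10 most variable at 459, 167 and 366 CPM. Both have processed copies that can take their reads, and the part of those copies in the spread was not tested. FDFT1, squalene synthase, was highest in replicate 2 at 21.8, 51.9 and 20.6 CPM, whereas NBEAL1 was lowest there at 84.5, 29.4 and 70.8 CPM. GUCY1A2, a cyclase subunit, had 24.2, 10.1 and 19.3 CPM, and the HLA class I gene HLA-B, which has close paralogs, 7.33, 9.19 and 17.4 CPM.

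To show where the resting state differed from the drug-treated cells, the mean of the 3 doxorubicin groups was set against the control group in 1 fit of all 12 libraries. Such a mean does not show whether the 3 times differed, and 1 time can carry it. By edgeR's quasi-likelihood test with Benjamini-Hochberg adjustment over 17320 genes, 3936 (22.7%) were higher and 4118 (23.8%) lower after doxorubicin at an adjusted p under 0.05, or 46.5% in either direction. Of the 299 list genes that were tested, 106 were higher, 107 lower and 86 did not pass. Those shares are the background against which each count below is to be read. Many genes named below were picked for small p-values, so a lack of overlap between groups adds little for them. The median log2 fold change over all genes tested was −0.01.

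More fibroblast genes were higher than lower after doxorubicin. Of 26 tested, 16 were higher after doxorubicin and 5 lower, with a median log2 fold change of 0.49. COL6A1, a chain of the beaded filament collagen VI, had 990.4, 1333 and 1600.0 CPM as lowest, median and highest of the 9 doxorubicin libraries, against 372, 431 and 374 CPM in the control libraries. The groups did not overlap, and the log2 fold change was 1.73 ± 0.08 (SE, adjusted p = 4.16e-15, edgeR's quasi-likelihood test). LUM went the other way, with 57.5, 68.5 and 147 CPM in the doxorubicin libraries and 216, 209 and 225 CPM in the control libraries, again without overlap, at −1.34 ± 0.06 (adjusted p = 1.14e-14, edgeR). The list's sum was 33519 to 37594 CPM in doxorubicin libraries and 23759 to 25208 CPM in control libraries.

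Smooth muscle genes had 10 higher and 4 lower of 16 tested, with a median of 0.38. The 4 lower were LMOD1, CNN1, TGFB1I1 and DES, at log2 fold changes of −0.65, −0.55, −0.50 and −1.52. Their adjusted p-values were 5.48e-05, 8.11e-05, 0.000245 and 0.00166 (edgeR). ACTA2 had 74.6, 94.0 and 118 CPM in the doxorubicin libraries, against 8.84, 12.6 and 9.44 CPM in the control libraries. Its log2 fold change was 3.23 ± 0.10 (adjusted p = 2.72e-18, edgeR). ACTA2 overlaps FAS in the annotation and the strand setting of the counting is not given, so reads of the shared stretch cannot be told apart. FAS, a death receptor gene, had 28.8, 35.0 and 64.5 CPM in the doxorubicin libraries and 7.16, 6.73 and 7.48 CPM in the control libraries, at 2.52 ± 0.10 (adjusted p = 1.87e-16, edgeR). Its part in the value of ACTA2 was not tested. MYLK had 376, 437 and 609 CPM in the doxorubicin libraries and 212, 189.6 and 195 CPM in the control libraries, at 1.27 ± 0.07 (adjusted p = 1.4e-13, edgeR). MYH11 stayed at or below 0.643 CPM in doxorubicin libraries and had 0 counts in control libraries.

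Cardiac lists stayed largely untestable, because most members did not pass the filter on low counts. Only 8, 9, 11 and 7 members of the transcription factor, sarcomere, excitation and hormone lists were tested, with 4, 3, 3 and 2 higher and 1, 2, 3 and 2 lower. Among those tested, GJA1 had 188, 213 and 337 CPM in the doxorubicin libraries and 126, 125 and 158 CPM in the control libraries, at 0.84 ± 0.07 (adjusted p = 1.03e-09, edgeR). ATP2A2 had 633, 713 and 829 CPM in the doxorubicin libraries and 538, 465 and 506 CPM in the control libraries, at 0.55 ± 0.06 (adjusted p = 8.83e-08, edgeR). Of the transcription factors, MYOCD was among the 4 higher, at a log2 fold change of 1.66 (adjusted p = 1.18e-14, edgeR). GATA6 was the 1 lower, at −0.33 (adjusted p = 0.000157, edgeR). GATA4 did not pass the test, at 0.26 ± 0.12 (adjusted p = 0.0818, edgeR). MYH7 had at most 0.145 CPM and TNNT2 at most 0.0967 CPM in a doxorubicin library. Other sarcomere genes were higher: NEBL, a nebulin relative of the Z-disc, had 0.0588, 0.706 and 1.07 CPM in the doxorubicin libraries and 0.233, 0.0666 and 0.135 CPM in the control libraries, with overlap, at 2.02 ± 0.56 (adjusted p = 0.00425, edgeR). ACTN2, the Z-disc alpha-actinin, had 0.353, 0.822 and 1.08 CPM in the doxorubicin libraries, against 0, 2 and 1 counts in the control libraries. TPM1 had 455, 500.0 and 748 CPM in the doxorubicin libraries and 379.8, 420.3 and 417 CPM in the control libraries, at 0.49 ± 0.06 (adjusted p = 8.13e-07, edgeR). The sarcomere list summed to 528 to 807 CPM in doxorubicin libraries and 453 to 485 CPM in control libraries.

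The epithelial list, with 5 higher and 4 lower of 15 tested and a median of 0.06, held members that moved apart. OCLN, occludin of tight junctions, had 5.63, 6.41 and 8.27 CPM in the doxorubicin libraries and 22.3, 19.7 and 18.7 CPM in the control libraries. Its log2 fold change was −1.57 ± 0.10 (adjusted p = 4.21e-12, edgeR). CLDN1, a claudin of the same junctions, had 17.8, 27.0 and 31.5 CPM in the doxorubicin libraries and 8.38, 6.59 and 5.80 CPM in the control libraries, at 1.85 ± 0.12 (adjusted p = 6.05e-12, edgeR). Neither pair of groups overlapped.

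Among other lineages 2, 1, 2 and 0 endothelial, leukocyte, neural and skeletal genes were higher and 3, 1, 4 and 2 lower, of 9, 5, 8 and 3 tested. Their summed levels were 28.2 to 33.1, 8.06 to 17.6, 34.0 to 64.9 and 4.69 to 7.33 CPM in doxorubicin libraries. In control libraries they were 29.1 to 30.8, 8.09 to 10.5, 46.4 to 49.8 and 7.39 to 8.76 CPM. The part of these lists in other differences was not tested.

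Receptors differed in both directions. Receptor tyrosine kinases had 11 higher and 11 lower of 29 tested, G protein-coupled receptors 8 and 10 of 23, and cytokine and death receptors 12 and 8 of 27. TGF-beta and BMP receptors had 2 higher and 6 lower of 13, nuclear receptors 3 and 6 of 18, and the natriuretic and cyclase list 0 and 2 of 3. ERBB3 had 8.23, 13.7 and 22.2 CPM in the doxorubicin libraries and 65.9, 68.2 and 68.3 CPM in the control libraries, at −2.24 ± 0.11 (adjusted p = 3.73e-13, edgeR). The leptin receptor LEPR had 25.1, 30.9 and 36.5 CPM in the doxorubicin libraries and 114, 81.7 and 94.6 CPM in the control libraries, at −1.62 ± 0.09 (adjusted p = 1.92e-12, edgeR). IL6R had 1.99, 2.60 and 4.62 CPM in the doxorubicin libraries and 10.9, 10.5 and 9.57 CPM in the control libraries, at −1.73 ± 0.13 (adjusted p = 4.31e-11, edgeR). Among the higher members beside FAS was TNFRSF10C, a TRAIL decoy receptor, with 8.14, 9.69 and 11.4 CPM in the doxorubicin libraries and 0.582, 0.799 and 0.809 CPM in the control libraries, at 3.76 ± 0.18 (adjusted p = 1.04e-14, edgeR). TNFRSF10D, another decoy for TRAIL, had 208, 237 and 244 CPM in the doxorubicin libraries and 96.6, 94.0 and 94.8 CPM in the control libraries, at 1.32 ± 0.06 (adjusted p = 7.08e-15, edgeR). ROR1, an orphan-type receptor kinase that binds WNT5A, had 8.17, 9.24 and 34.1 CPM in the doxorubicin libraries and 4.48, 5.13 and 4.92 CPM in the control libraries, at 1.58 ± 0.11 (adjusted p = 1.95e-11, edgeR). These 6 receptors were picked for small p-values, so a lack of overlap between the groups is not read as a result for them.

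**Figure D5:**
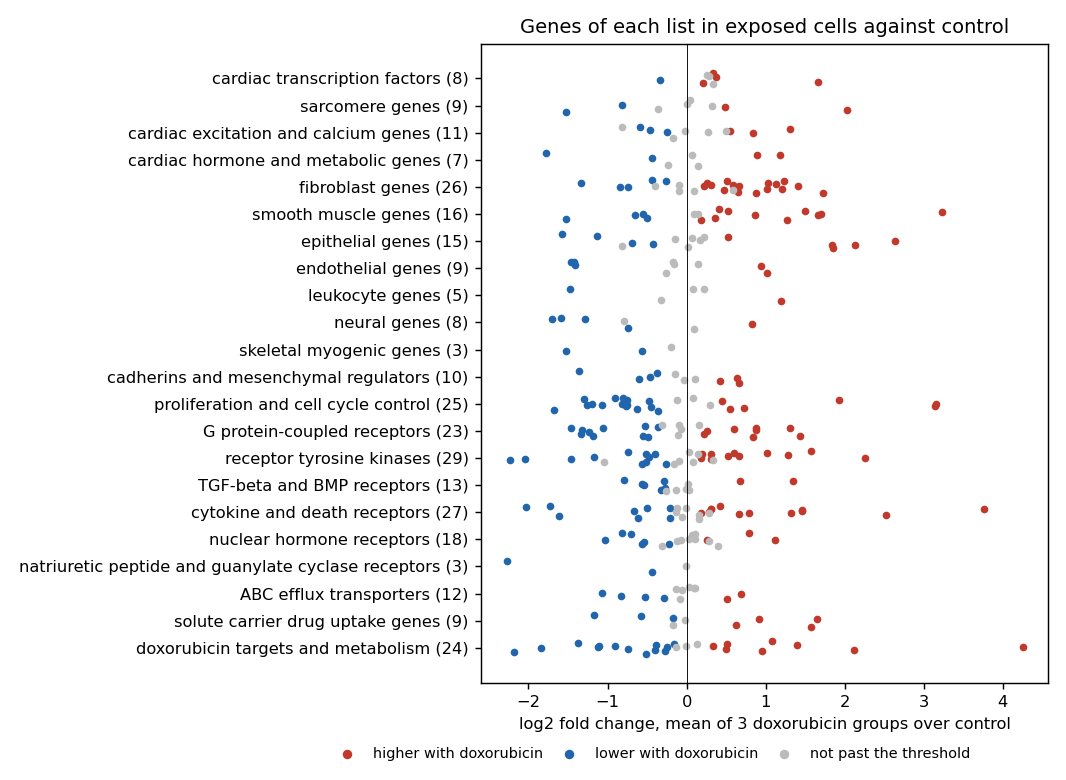
Log2 fold change of list members tested, mean of the 3 doxorubicin groups over control, with 1 point per gene coloured by its call in edgeR's quasi-likelihood test and the number tested beside each list. Genes with 3 or fewer counts over the control libraries are not drawn. ACTA2 is the highest smooth muscle point at 3.23 and ERBB3 the lowest receptor tyrosine kinase point at −2.24.

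Proliferation genes carried more lower than higher calls, 15 against 7 of 25 tested, with a median of −0.48. MKI67 had 401, 521 and 625 CPM in the doxorubicin libraries and 1213, 1117 and 1210.1 CPM in the control libraries, at −1.19 ± 0.06 (adjusted p = 6.98e-14, edgeR). CDKN1A, the kinase inhibitor p21, had 1405, 1715 and 2401 CPM in the doxorubicin libraries and 206, 230.5 and 168 CPM in the control libraries, at 3.16 ± 0.10 (adjusted p = 4.35e-18, edgeR). MDM2, a ubiquitin ligase gene, had 955, 1362 and 2298 CPM in the doxorubicin libraries and 176, 147 and 172 CPM in the control libraries, at 3.15 ± 0.09 (adjusted p = 1.55e-18, edgeR). The list thus summed to more after doxorubicin, 6315 to 7781 CPM, than in the control libraries, 5191 to 5397 CPM, although most of its members were lower. The drug-related genes had 8 higher and 13 lower of 24, with a median of −0.21. AKR1C3 had 7.59, 9.88 and 16.5 CPM in the doxorubicin libraries and 47.2, 48.0 and 53.8 CPM in the control libraries, at −2.18 ± 0.09 (adjusted p = 3.52e-16, edgeR). Other aldo-keto reductase genes were higher: AKR1B1 at a log2 fold change of 0.96 (adjusted p = 1.63e-10, edgeR) and AKR1B10 at 4.25 (adjusted p = 2.89e-10, edgeR). NQO1 had 45.0, 55.2 and 87.9 CPM in the doxorubicin libraries and 135, 132 and 126 CPM in the control libraries, at −1.11 ± 0.06 (adjusted p = 2.57e-13, edgeR). SOD2 was higher, with 377, 645 and 896 CPM in the doxorubicin libraries and 156, 126 and 148 CPM in the control libraries, at 2.11 ± 0.10 (adjusted p = 7.08e-15, edgeR).

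Efflux genes had 2 higher and 4 lower of 12 tested and uptake genes 4 and 3 of 9, with medians of −0.07 and −0.02. SLC28A3, a concentrative nucleoside carrier, had 6.17, 8.49 and 10.0 CPM in the doxorubicin libraries and 2.50, 2.73 and 2.63 CPM in the control libraries, at 1.65 ± 0.15 (adjusted p = 2.14e-09, edgeR). ABCA3, a lipid transporter gene, had 1.46, 5.31 and 6.65 CPM in the doxorubicin libraries and 9.72, 7.39 and 7.41 CPM in the control libraries, at −1.07 ± 0.14 (adjusted p = 9.22e-07, edgeR). ABCG2 and ABCC2 were also lower, at −0.52 (adjusted p = 0.00133, edgeR) and −0.83 (adjusted p = 0.00101, edgeR). The 2 higher efflux genes were ABCC10 at 0.68 (adjusted p = 2.24e-06, edgeR) and ABCC3 at 0.51 (adjusted p = 0.00925, edgeR). ABCC1 did not pass the test, at 0.09 ± 0.07 (adjusted p = 0.299, edgeR). SLC29A1, the equilibrative nucleoside carrier, had 35.8, 41.2 and 46.6 CPM in the doxorubicin libraries and 25.4, 28.8 and 29.3 CPM in the control libraries, at 0.63 ± 0.08 (adjusted p = 6.49e-07, edgeR). ABCB1 had at most 0.395 CPM in a doxorubicin library and was not tested.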

How the data were processed

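The authors deposited raw counts per gene for 12 libraries, 60607 gene IDs, with no rows that name no gene. Per the submitters' processing notes, the build was GRCh38.p13 and the tools were HTSeq 0.13.5, STAR 2.7.8, fastp 0.23.2 and Trimmomatic 0.38. Their roles, the annotation release and the strand setting are not given in the sources used here.

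CPM used library totals. TPM used the exon length of GENCODE 29 (GRCh38), matched by unversioned ID, which gave 58361 IDs a length and 60437 a symbol. Positions are from the same annotation and start regions from RefSeq (GRCh38.p14). The 4 windows printed matched by symbol. Intervals are exact Poisson 95% intervals on pooled counts. The control libraries held 14835743 to 17188805 counts, so a single library's floor of 3 counts was 0.175 to 0.202 CPM.

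The comparison used edgeR 4.0.16 in R 4.3.3: TMM factors, genes kept with filterByExpr at a minimum count of 10 and a total of 15, 1 mean per group, and a robust quasi-likelihood fit, with Benjamini-Hochberg adjustment over 17320 genes. Common BCVs came from a fit within each group. The BCV of a single gene was its SD over its mean in the control libraries after removal of Poisson variance, with no fit. The fitting was tested on simulated data. DESeq2 1.42.0, other scalings and filters, a replicate block and the omission of each library were tried as alternatives. The members and gene lists were chosen with earlier results of these data known. Genes were named by a rule: the highest by CPM and TPM, for each list the highest by TPM, those at 0 counts and those central to it, the 10 with the largest BCV, and up to 3 called members in each direction per list. A few others were named after their values were seen, and some genes the rule names are not reported here.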

Additional observations from a re-analysis of the deposited data

How the results depend on the processing

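Detected genes numbered 13441, and 12105 at a limit of 2 CPM, 15123 at 0.5 CPM, 14193 at a mean of 1 CPM, and 13441 to 13509 under other scalings or with counts thinned to 1 depth. Leaving out a control library gave 13636 to 13754. The count of detected members moved by over 1.5 times in 6 of 198 list settings, all in the hormone and metabolic, skeletal, endothelial and leukocyte lists, which hold few detected genes. The common control BCV of 0.111 ranged from 0.0512 to 0.138 when a library was left out, with the lowest value without control replicate 2. Genes changed numbered 8054, and 7744 to 8185 under other scalings, filters and DESeq2 (7807, with 3908 higher and 3899 lower). Leaving out a library gave 7005 to 8053. Libraries of the same number in different groups were no more alike than others. The 18 correlations of their deviations from group means ran from −0.171 to 0.0963, and those of other numbers from −0.217 to 0.170. With so few libraries per group, this cannot show that the samples were unpaired. With a replicate block, 7797 genes changed (3818 higher, 3979 lower). For 108 genes followed across settings, 1902 of 1937 values kept their direction and side of the threshold, and 35, in 9 genes including NPPB, NPPA, CPT1B and JPH2, lost the call. None reversed. Depth limits levels under 0.0638 CPM.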

Other observations

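Untreated cells also had transcripts of receptors for death ligands, interferons and interleukins. TNFRSF10B, a receptor for the death ligand TRAIL, had 159.8, 141 and 144 CPM, and its decoy TNFRSF10D, which lacks a working death domain, 96.6, 94.0 and 94.8 CPM. The other signalling TRAIL receptor, TNFRSF10A, had 5.88, 4.66 and 6.88 CPM. Per length TNFRSF10B and TNFRSF10D, at 113 ± 13.3 and 105 ± 7.23 TPM, did not differ beyond their SDs, and TNFRSF10A stood at 7.74 ± 1.76 TPM. The type I interferon receptor chains were unequal per length, with 55.9 ± 6.66 TPM for IFNAR1 and 5.94 ± 1.02 TPM for IFNAR2, while the type II chains IFNGR1 and IFNGR2 had 47.6 ± 4.36 and 53.4 ± 3.75 TPM. Of the innate sensors listed, TLR4 and TLR3 had 1.68 ± 0.275 and 1.49 ± 0.465 TPM and TLR2 had 0, 2 and 0 counts.

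Lipid mediator receptors were represented in part. The sphingosine 1-phosphate receptors S1PR2 and S1PR1 had 15.2 ± 2.30 and 14.9 ± 1.94 TPM, which did not differ beyond their SDs. The prostaglandin E2 receptors that raise cyclic AMP, PTGER2 and PTGER4, had 10.8 ± 1.77 and 10.5 ± 0.131 TPM. The other members of that family, PTGER1 and PTGER3, had 1, 2 and 0 and 2, 0 and 1 counts. KIT, the stem cell factor receptor, was even between libraries at 27.8, 25.8 and 25.7 CPM.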
